A study of Danio rerio with 9 samples.

Results

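A set of 10 growth signaling genes was followed in zebrafish Müller glia (MG), the glia that regenerate neurons after retinal injury: the heparin-binding EGF ligands *hbegfa* and *hbegfb*, the EGF receptor *egfra*, the FGF ligands *fgf8a* and *fgf24*, the FGF receptors *fgfr1a* and *fgfr2*, and the feedback genes *spry2*, *spry4* and *dusp6*. They were listed by name, as signals and feedback genes known from MG proliferation, with earlier results of these data known. The 10 names matched 12 of the 23707 Ensembl gene IDs in the count table, because the symbols *FGF8* and *FGFR1* each belong to a pair of zebrafish genes. Which ID of a pair is *fgf8a* or *fgfr1a* was not assigned, and both are given. *hbegfb* and *egfra* appear in the names table as *HBEGF* (ENSDARG00000031246) and *EGFR* (ENSDARG00000013847).

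MG were sorted by GFP from adult male and female *gfap:GFP* fish, in which the glial *gfap* promoter labels MG and MG-derived progenitors. The 9 libraries of polyA RNA formed 3 groups of 3: *mych*-/- fish at 2 days post injury (dpi), WT fish at 2 dpi, and WT fish without injury. All groups carried the *gfap:GFP* transgene, retinas were injured with needle pokes, and cells of several retinas were pooled. The *mych*-/- fish descend from a single germline frameshift allele of *mych*, a Myc family gene. There was no uninjured *mych*-/- group, so a genotype difference that precedes injury and one in the injury response cannot be told apart.

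HB-EGF is made as a membrane-anchored precursor that ADAM metalloproteases cut to release the soluble ligand. Soluble ligand binds EGFR and related ErbB receptors, whereas FGFs bind FGF receptors, and both receptor families signal through Ras and the MAPK cascade to ERK. ERK activity in turn raises transcription of its own brakes, among them the Sprouty proteins and Dusp6, a phosphatase that inactivates ERK. In zebrafish, HB-EGF is known as an early injury signal that drives MG to reprogram and proliferate, and FGFs act on MG proliferation as well.

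Library totals ranged from 46835977 to 77133615 counts. Levels are given as CPM, counts scaled to a common library size, which do not account for gene length and are compared only within a gene. The 12 listed MG markers gave 15 gene IDs, with none for *aqp1a.1* and *cx43*, and each of the 15 was detected in every group. Summed MG markers ran from 13489.8 to 36107 CPM in *mych*-/- libraries, 15375 to 23776 CPM in WT 2 dpi libraries and 10589 to 17624 CPM in uninjured libraries. With injury in WT 7 of 15 rose and 1 fell by the rule given below, where 22.3% of all genes tested rose and 19.8% fell. The higher sums after injury rested on *apoeb*: without it they were 5641 to 14421 CPM in *mych*-/-, 7442 to 10392 CPM in WT 2 dpi and 7078 to 13459.6 CPM in uninjured libraries. RNA of other cells was present as well. The summed rod markers ran from 1339.5 to 2948 CPM in *mych*-/- libraries, 1099 to 3358 CPM in WT 2 dpi libraries and 14479 to 28505 CPM in uninjured libraries. The summed cone markers were higher, at 16752 to 24360 CPM in *mych*-/-, 12825 to 23652 CPM in WT 2 dpi and 41606 to 66006 CPM in uninjured libraries. The mutated gene itself, *mych*, stood at 145, 197 and 158 CPM in *mych*-/- libraries, against 180.4, 233 and 319 CPM in WT 2 dpi and 20.0, 11.04 and 25.9 CPM in uninjured libraries. The frameshift need not lower the transcript, and the genotypes differed by -0.55 on the log2 scale (SE 0.30, adjusted p = 0.335 by edgeR), so these counts do not check the genotype labels.

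Comparison of WT MG at 2 dpi with uninjured WT MG asked which of these signals respond to injury. The HB-EGF ligands rose and *dusp6* fell, and the other 9 gene IDs did not meet both thresholds of the rule. To be called, a gene needed an adjusted p-value no higher than 0.05 together with a log2 fold change beyond 0.5 either way. By this rule 3 of 12 gene IDs were called, 2 higher and 1 lower, where 42.1% of the 20484 genes tested were called, 22.3% higher and 19.8% lower. DESeq2 called 4 of the 12, adding *egfra*, where it called 46% of the genes it tested. The share called among the 12 was thus below that of all genes, and their median log2 fold change was 0.08 beside -0.02 for all genes.

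**Figure D1:**
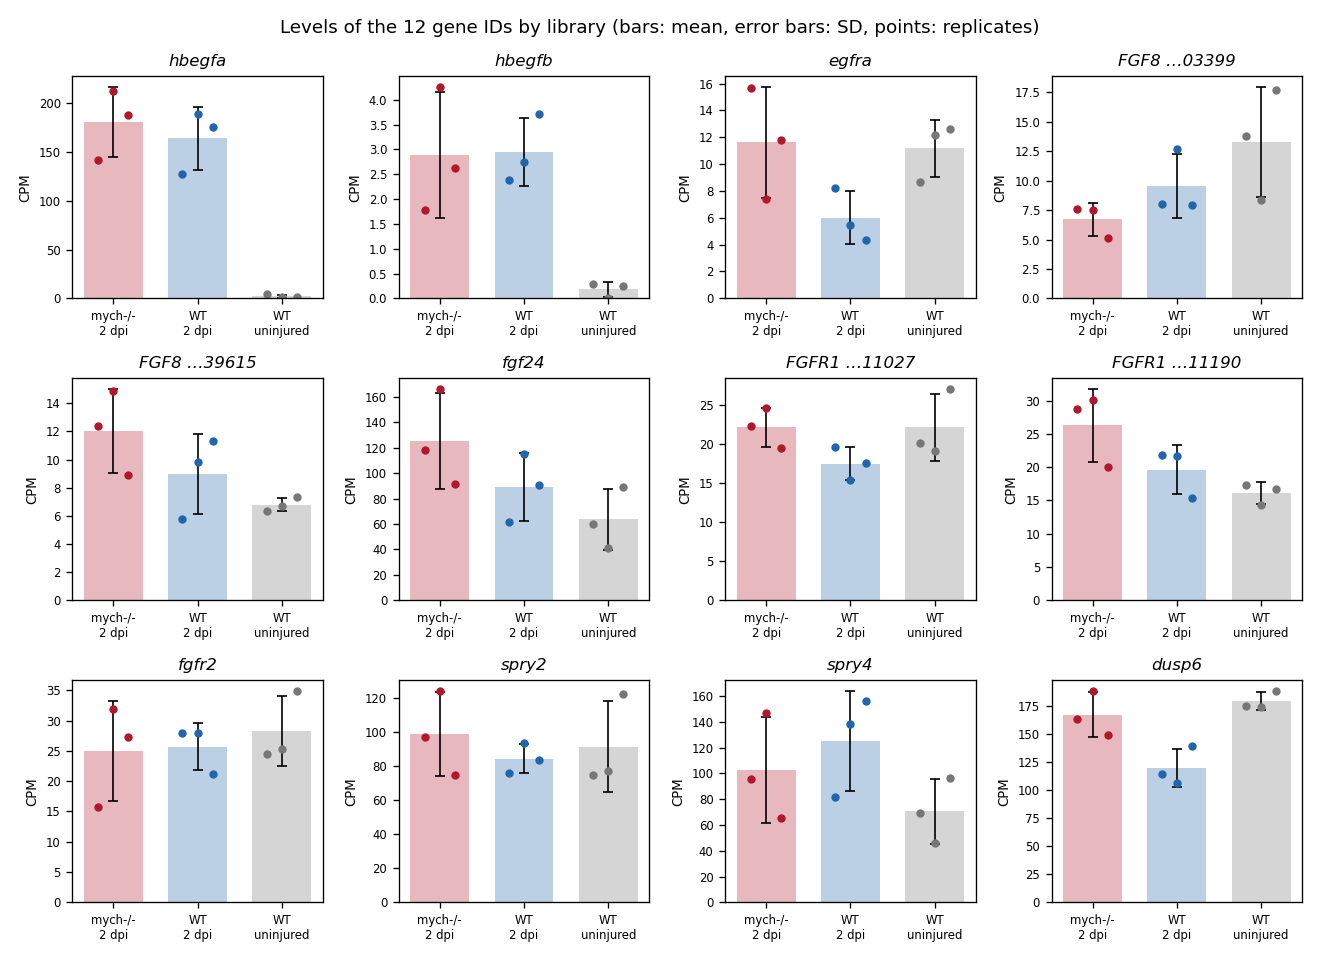
Level of each of the 12 gene IDs in CPM (linear axis from 0) in the 3 groups. Points are libraries, bars are means and error bars are SD (n = 3); FGF8 and FGFR1 panels carry the last digits of the gene ID. *hbegfa* was at 127 to 213 CPM in all injured libraries and at most 3.95 CPM in uninjured ones. For *FGFR1* ENSDARG00000011027, *fgfr2*, *spry2* and *spry4* the points overlap between all groups. In every other panel at least 1 pair of groups does not overlap.

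The ligand *hbegfa* (ENSDARG00000075121) had the largest difference of the 12. It stood at 141, 213 and 188 CPM in *mych*-/- libraries, 127, 189 and 176 CPM in WT 2 dpi libraries, and 3.95, 1.07 and 1.36 CPM in uninjured libraries. Injured and uninjured libraries were far apart, while those of the genotypes overlapped. In WT MG at 2 dpi *hbegfa* was 76.7-fold higher than in uninjured MG, a log2 fold change of 6.26 (SE 0.49, 95% interval 5.20 to 7.33, adjusted p = 3.29e-06 by edgeR). This placed it at rank 543 of 20484 by size of rise, above 97.3% of the genes tested. In sorted cells of a whole group, a larger share of cells with the transcript and more transcript per cell cannot be told apart.

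Its paralog *hbegfb* was scarce throughout. Its level was 1.77, 4.26 and 2.62 CPM in *mych*-/- libraries, 2.38, 2.75 and 3.71 CPM in WT 2 dpi libraries, and 0.295, 0 and 0.239 CPM in uninjured libraries. Uninjured libraries held 16, 0 and 15 counts, and every injured library lay above them. The log2 fold change with injury was 4.01 (SE 1.04, 95% interval 1.73 to 6.28, adjusted p = 0.00845 by edgeR), and this interval is wider than that of *hbegfa*. Both ligands stayed called when any 1 library was left out, with log2 fold changes of 5.94 to 7.10 for *hbegfa* and 3.45 to 4.57 for *hbegfb*. The fold of *hbegfa* depended most on uninjured replicate 1 and was 137-fold without it.

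Microglia, which could enter a sort, are also a known source of growth factors. Of 13 microglial markers 7 rose and 1 fell with injury in WT, where 22.3% of all genes tested were called higher and 19.8% lower. Their summed level was 209.5 to 283 CPM in *mych*-/-, 256 to 282 CPM in WT 2 dpi and 111 to 158 CPM in uninjured libraries. *AIF1L* carried most of this sum. Without it the sums were 51.5 to 92.6 CPM in *mych*-/-, 64.4 to 84.0 CPM in WT 2 dpi and 21.7 to 64.1 CPM in uninjured libraries. The uninjured range thus overlapped that of *mych*-/- and lay below that of WT 2 dpi, with a narrow gap. Another marker, *c1qa*, was at 0 in all uninjured libraries. Whether these cells took part in the rise of HB-EGF ligands was not tested.

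The receptor *egfra*, to which HB-EGF binds, did not rise with its ligands. It was at 15.7, 7.38 and 11.8 CPM in *mych*-/- libraries, 8.24, 5.45 and 4.36 CPM in WT 2 dpi libraries, and 8.69, 12.2 and 12.6 CPM in uninjured libraries. All WT 2 dpi libraries were below all uninjured ones, with the highest WT 2 dpi and the lowest uninjured library close together. The log2 fold change was -0.89 (SE 0.36, 95% interval -1.67 to -0.11), with an edgeR adjusted p of 0.0642, so *egfra* was not called. It was called by DESeq2 (adjusted p = 0.0441), with upper quartile scaling (adjusted p = 0.0438 by edgeR), and without WT 2 dpi replicate 1 (adjusted p = 0.0299 by edgeR) or *mych*-/- replicate 2 (adjusted p = 0.0438 by edgeR).

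None of the FGF ligands was called with injury. *fgf24* (ENSDARG00000037677), a relative of *fgf8* that patterns the zebrafish fin bud, was at 118, 166 and 91.3 CPM in *mych*-/- libraries, 61.5, 115 and 90.3 CPM in WT 2 dpi libraries and 60.1, 41.4 and 89.1 CPM in uninjured libraries. Its WT 2 dpi and uninjured libraries overlapped, and the log2 fold change was 0.49 (SE 0.32, adjusted p = 0.248 by edgeR).

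The pair of *FGF8* IDs, genes for a ligand best known from brain and limb patterning, had values of opposite sign. ENSDARG00000003399 was at 7.56, 7.51 and 5.09 CPM in *mych*-/-, 7.99, 12.7 and 7.96 CPM in WT 2 dpi and 13.8, 8.37 and 17.7 CPM in uninjured libraries, a log2 fold change with injury of -0.48 (SE 0.35, adjusted p = 0.298 by edgeR). ENSDARG00000039615 was at 12.4, 14.9 and 8.92 CPM in *mych*-/-, 5.79, 9.82 and 11.3 CPM in WT 2 dpi and 6.35, 6.73 and 7.33 CPM in uninjured libraries, a log2 fold change of 0.40 (SE 0.32, adjusted p = 0.356 by edgeR). WT 2 dpi libraries overlapped uninjured ones for both, and neither difference exceeded the spread of replicates.

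The FGF receptors of the set, tyrosine kinases at the cell surface, were not called with injury either. *FGFR1* ENSDARG00000011027 ranged from 19.6 to 24.6 CPM in *mych*-/-, 15.4 to 19.6 CPM in WT 2 dpi and 19.2 to 27.2 CPM in uninjured libraries, with a log2 fold change with injury of -0.34 (95% interval -0.83 to 0.15, adjusted p = 0.250 by edgeR). *FGFR1* ENSDARG00000011190 ranged from 20.0 to 30.1 CPM in *mych*-/-, 15.4 to 21.8 CPM in WT 2 dpi and 14.3 to 17.4 CPM in uninjured libraries, with a log2 fold change of 0.28 (95% interval -0.24 to 0.81, adjusted p = 0.379 by edgeR). *fgfr2* (ENSDARG00000058115) ranged from 15.7 to 31.9 CPM in *mych*-/-, 21.2 to 28.0 CPM in WT 2 dpi and 24.5 to 34.97 CPM in uninjured libraries, with a log2 fold change of -0.14 (95% interval -0.74 to 0.46, adjusted p = 0.735 by edgeR). The intervals of all 3 receptor IDs took in 0 and left room for differences of up to 0.81 or down to -0.83.

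The feedback genes did not move as a group. *dusp6* (ENSDARG00000070914), the ERK phosphatase, was at 163, 188 and 149 CPM in *mych*-/- libraries, 114, 107 and 139 CPM in WT 2 dpi libraries and 175, 174 and 188 CPM in uninjured libraries. Each WT 2 dpi library was below each uninjured library and also below each *mych*-/- library. *dusp6* fell by 0.58 on the log2 scale with injury in WT MG (SE 0.17, 95% interval -0.96 to -0.20, adjusted p = 0.0181 by edgeR). The call was lost without WT 2 dpi replicate 1 (adjusted p = 0.0540 by edgeR), WT 2 dpi replicate 2 (adjusted p = 0.0761 by edgeR), uninjured replicate 1 (adjusted p = 0.0509 by edgeR) or uninjured replicate 3 (adjusted p = 0.0539 by edgeR), with log2 fold changes of -0.70 to -0.51 over all libraries left out.

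*spry4* (ENSDARG00000068732), a Sprouty inhibitor of receptor tyrosine kinase signaling, had the opposite sign. It was at 96.0, 147 and 65.4 CPM in *mych*-/-, 81.5, 138 and 156 CPM in WT 2 dpi and 69.2, 46.1 and 96.8 CPM in uninjured libraries. WT 2 dpi replicate 1 lay within the uninjured range, and the log2 fold change was 0.83 (SE 0.35, 95% interval 0.06 to 1.59, adjusted p = 0.0777 by edgeR). It was called with scaling by library size only (adjusted p = 0.0495 by edgeR), and without *mych*-/- replicate 2 (0.0497), WT 2 dpi replicate 1 (0.0311) or uninjured replicate 3 (0.0375), all edgeR adjusted p-values. *spry2* (ENSDARG00000078308), its family member, was at 97.4, 124 and 74.8 CPM in *mych*-/-, 76.2, 93.5 and 83.8 CPM in WT 2 dpi and 75.1, 76.9 and 123 CPM in uninjured libraries, with a log2 fold change of -0.12 (95% interval -0.64 to 0.41, adjusted p = 0.746 by edgeR).

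Groups without overlap were found for 4 of 12 gene IDs with injury in WT (*hbegfa*, *hbegfb*, *egfra* and *dusp6*), where 56.6% of all genes tested had none.

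Comparison of *mych*-/- with WT MG at 2 dpi asked whether loss of Mych altered these signals in the injured retina. None of the 12 gene IDs was called by edgeR's quasi-likelihood test, where 1.69% of all genes tested were called, 0.366% higher and 1.33% lower. DESeq2 called 0 as well, where it called 8.72% of its genes, and 2 had an unadjusted edgeR p-value under 0.05, *egfra* and *dusp6*. Groups did not overlap for 2 of the 12, *dusp6* and *FGF8* ENSDARG00000003399, where 23.8% of all genes tested had no overlap.

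For *egfra*, the log2 fold change between genotypes was 0.95 (SE 0.36, 95% interval 0.17 to 1.73, adjusted p = 0.178 by edgeR). Its libraries overlapped, since *mych*-/- replicate 2 (7.38 CPM) lay below WT 2 dpi replicate 1 (8.24 CPM). For *dusp6* it was 0.48 (SE 0.17, 95% interval 0.10 to 0.86, adjusted p = 0.165 by edgeR), and all *mych*-/- libraries were higher than all WT 2 dpi libraries. For *FGF8* ENSDARG00000003399, whose libraries ran from 5.09 to 7.56 CPM in *mych*-/- and 7.96 to 12.7 CPM in WT, it was -0.51 (SE 0.35, adjusted p = 0.459 by edgeR). These 3 differences did not pass the adjusted threshold. Markers of inner retinal neurons also had values above 0 between genotypes, with median log2 fold changes of 0.58 over 10 bipolar, 0.75 over 10 amacrine, 0.71 over 4 horizontal and 1.05 over 11 ganglion cell markers, of which 0 were called. The medians of photoreceptor markers were lower, at -0.15 over 13 rod and 0.08 over 11 cone markers, of which 0 were called. The summed bipolar markers, at 615 to 733 CPM in *mych*-/- and 358 to 515 CPM in WT 2 dpi libraries, did not overlap. The same held for horizontal cell markers. The summed amacrine markers, at 1247 to 2527 CPM in *mych*-/- and 751 to 1798 CPM in WT 2 dpi libraries, overlapped. Sums of ganglion cell, rod and cone markers overlapped as well. The part of neuronal RNA in the genotype values of *egfra* and *dusp6* was not tested.

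The ligand most changed by injury was close between genotypes. The mean of *hbegfa* was 181 ± 36.3 CPM in *mych*-/- MG and 164 ± 32.7 CPM in WT MG at 2 dpi (SD, n = 3 each), a log2 fold change of 0.14 (95% interval -0.70 to 0.98, adjusted p = 0.903 by edgeR). For *hbegfb* the log2 fold change was -0.03 with a wide interval of -2.01 to 1.95 (adjusted p = 0.992 by edgeR). A difference of the size allowed by these intervals would not have been detected, so the values do not show equal levels. Of the remaining 7 IDs, 5 had values above 0 (*FGF8* ENSDARG00000039615, *fgf24*, both *FGFR1* IDs and *spry2*, at 0.23 to 0.49) and 2 had values below 0 (*fgfr2* at -0.04 and *spry4* at -0.28). Their edgeR adjusted p-values ran from 0.360 to 0.963, and the median over the 12 was 0.28 beside 0.03 for all genes.

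**Figure D2:**
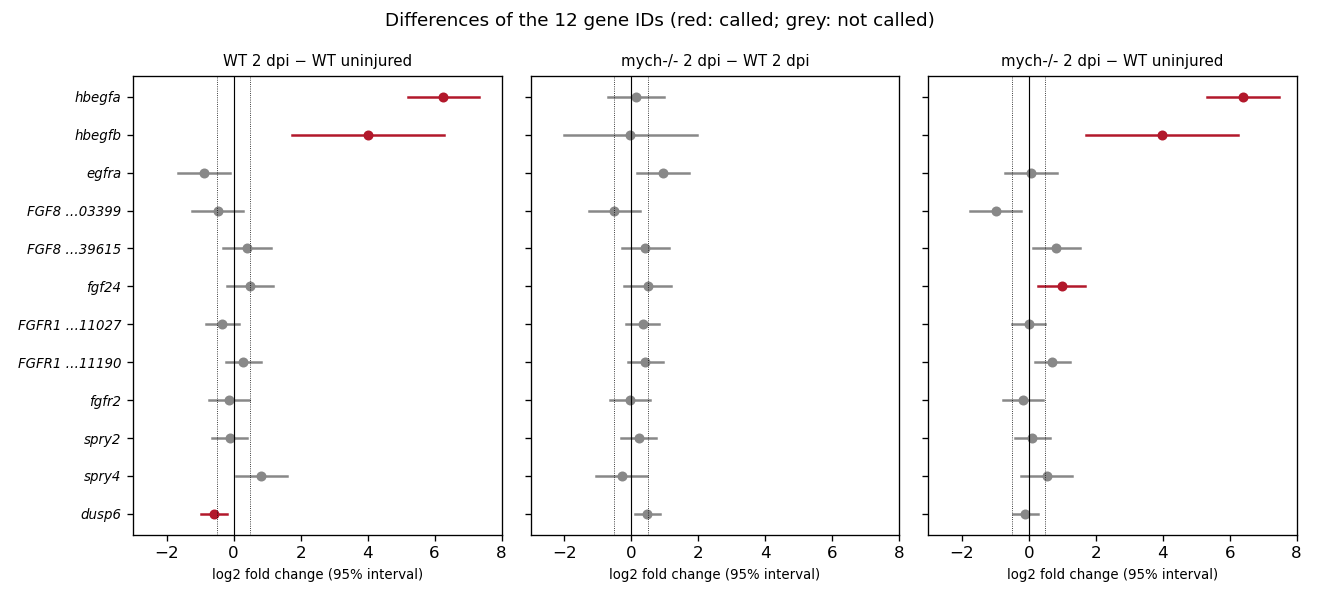
Log2 fold change (points) with its 95% interval (lines) for each gene ID in WT 2 dpi minus WT uninjured, *mych*-/- 2 dpi minus WT 2 dpi, and *mych*-/- 2 dpi minus WT uninjured MG. Red marks called genes, dotted lines the fold threshold of 0.5; the HB-EGF ligands stand at 6.26 and 4.01 in the first panel and 6.40 and 3.98 in the last, and no gene is red in the middle one.

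Injured *mych*-/- MG were also set against uninjured WT MG. This comparison shares the *mych*-/- libraries with the second and the uninjured libraries with the first, and the first and second share the WT 2 dpi libraries. It joins injury and genotype, whose parts cannot be told apart in it. Of the 12 gene IDs 3 were called, all higher, where 25.8% of all genes tested were called, with 16.3% of tested genes higher and 9.53% lower. DESeq2 called 5 of the 12, where it called 31.7% of its genes. For 6 IDs the groups did not overlap, where 46.4% of all genes tested had none.

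*hbegfa* was 84.6-fold higher in injured *mych*-/- than in uninjured WT MG, a log2 fold change of 6.40 (SE 0.49, adjusted p = 6.15e-06 by edgeR), and *hbegfb* had a log2 fold change of 3.98 (SE 1.04, adjusted p = 0.0147 by edgeR). Over libraries left out, *hbegfa* ran from 6.10 to 7.25 and was 153-fold higher without uninjured replicate 1. The HB-EGF ligands were thus called in injured MG of both genotypes. *fgf24* was the third, at 125 ± 38.0 CPM in *mych*-/- and 63.5 ± 24.1 CPM in uninjured MG (SD, n = 3 each), a log2 fold change of 0.98 (SE 0.32, 95% interval 0.28 to 1.68, adjusted p = 0.0424 by edgeR). This call is the least firm of the 3. It was lost with upper quartile scaling (adjusted p = 0.0519 by edgeR), with the replicate number as a block (0.0641), and without *mych*-/- replicate 1 (0.0851), *mych*-/- replicate 2 (0.162), WT 2 dpi replicate 3 (0.0612), uninjured replicate 1 (0.0994) or uninjured replicate 2 (0.125), all edgeR adjusted p-values.

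*dusp6*, which fell in WT MG, had a log2 fold change of -0.10 in this comparison (95% interval -0.48 to 0.28, adjusted p = 0.732 by edgeR), and *egfra* one of 0.06 (95% interval -0.72 to 0.83, adjusted p = 0.934 by edgeR). For both genes the *mych*-/- libraries overlapped the uninjured ones. Without uninjured *mych*-/- MG, whether the injury difference of *dusp6* or *egfra* depends on genotype was not tested. *FGFR1* ENSDARG00000011190 (0.71, adjusted p = 0.0501 by edgeR), *FGF8* ENSDARG00000003399 (-0.99, adjusted p = 0.0569 by edgeR) and *FGF8* ENSDARG00000039615 (0.83, adjusted p = 0.0847 by edgeR) were not called, without overlap between the groups for *FGFR1* ENSDARG00000011190 and both *FGF8* IDs. All 3 were called under other settings. *FGFR1* ENSDARG00000011190 was called under 6 alternatives, with the lowest edgeR adjusted p (0.0259) without *mych*-/- replicate 3. *FGF8* ENSDARG00000003399 was called by DESeq2 (adjusted p = 0.0353) and without uninjured replicate 2 (adjusted p = 0.0337 by edgeR), and *FGF8* ENSDARG00000039615 with scaling by library size only (adjusted p = 0.0420 by edgeR).

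Other genes of these pathways were taken from 9 lists of EGF and FGF ligands, receptors, sheddases, feedback inhibitors and the MAPK cascade. Of 121 listed genes 10 had no match, and the others gave 111 gene IDs, of which 106 were tested. With injury in WT MG 40 of them were called (37.7%, against 42.1% of all genes tested), 17 higher and 23 lower. Between genotypes 0 of 106 were called by edgeR, where 1.69% of all genes tested were called, and 4 by DESeq2, which called 8.72% of its genes. An unadjusted edgeR p-value under 0.05 was found for 16 (15.1%), against 19.4% of all genes tested. In injured *mych*-/- against uninjured WT MG 22 were called (20.8%, against 25.8% of all genes tested), 15 higher and 7 lower.

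**Figure D3:**
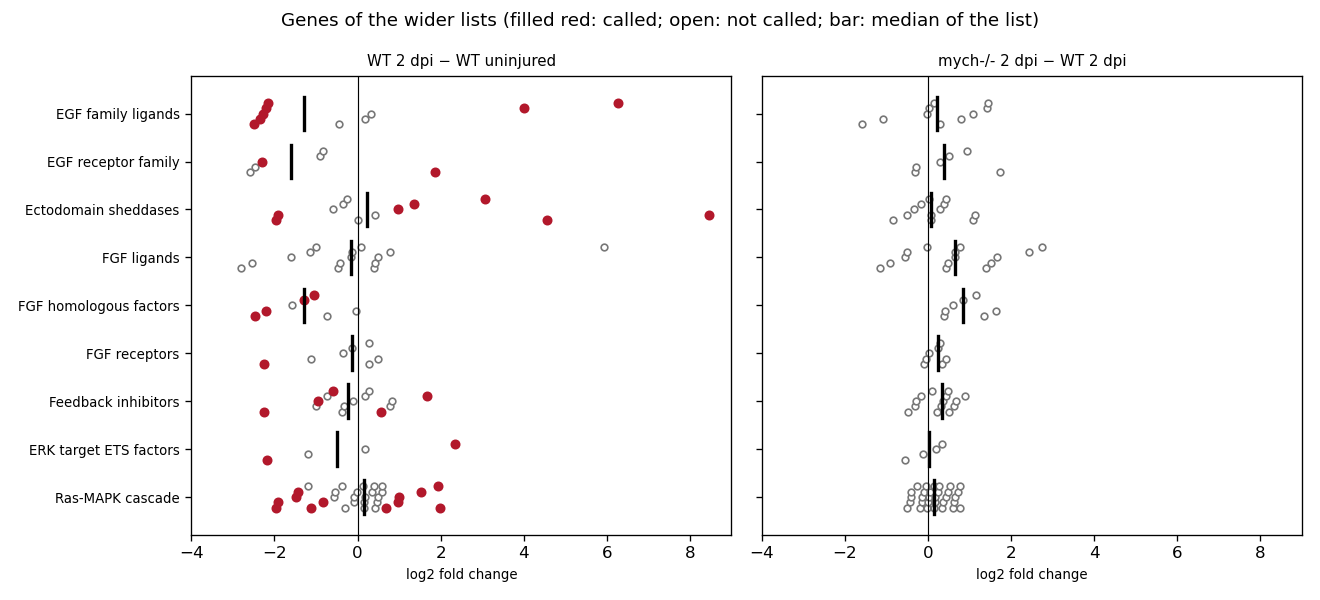
Log2 fold change of every tested gene of the 9 lists, by list, for WT 2 dpi minus WT uninjured (left) and *mych*-/- 2 dpi minus WT 2 dpi MG (right); filled red points are called, open points are not, and the bar is the list's median. With injury red points lie on both sides of 0 in 6 of the lists, and none is red between genotypes; the open FGF ligand point near 6 is *fgf7*, which was at 0 in all uninjured libraries and whose fitted value is no estimate of size.

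Among EGF family ligands, *hbegfa* and *hbegfb* were the 2 of 10 that rose, and 5 fell. *nrg3b*, a neuregulin ligand of ErbB receptors, was at 18.3, 10.3 and 23.6 CPM in *mych*-/-, 8.71, 3.66 and 6.82 CPM in WT 2 dpi and 40.3, 34.0 and 33.7 CPM in uninjured libraries. It fell by 2.49 on the log2 scale (SE 0.37, adjusted p = 0.000237 by edgeR). *nrg1*, a further neuregulin, had -2.35 (SE 0.53, adjusted p = 0.00395 by edgeR) and *egf*, the founding ligand of the family, -2.27 (SE 0.44, adjusted p = 0.00150 by edgeR). The injury comparison thus had 2 of 10 EGF family ligands higher beside 5 lower, where 22.3% of all genes tested were called higher and 19.8% lower.

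The fall of these ligands went with that of markers of neurons. Of 10 bipolar cell markers all 10 fell, as did 9 of 10 amacrine cell markers, 9 of 11 cone markers, 11 of 13 rod markers, 4 of 4 horizontal cell markers and 6 of 11 retinal ganglion cell markers. The share called lower among all genes tested was 19.8%. The summed bipolar markers were at 615 to 733 CPM in *mych*-/-, 358 to 515 CPM in WT 2 dpi and 1053 to 1805 CPM in uninjured libraries, and the amacrine markers at 1247 to 2527 CPM in *mych*-/-, 751 to 1798 CPM in WT 2 dpi and 3909.96 to 4719.7 CPM in uninjured libraries. No bipolar marker was at 0 throughout a group, and 1 amacrine marker was at 0 in all *mych*-/- libraries. The part of neuronal RNA in the lower values of *nrg3b*, *nrg1* and *egf*, and of *egfra* and *dusp6*, was not tested.

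Among ErbB receptors, *erbb2*, a partner that binds no ligand itself, rose by 1.86 (SE 0.39, adjusted p = 0.00235 by edgeR). It was at 8.81, 11.6 and 6.55 CPM in *mych*-/-, 15.1, 10.7 and 7.62 CPM in WT 2 dpi and 2.25, 4.23 and 2.74 CPM in uninjured libraries, so all injured libraries were above all uninjured ones. *ERBB4* ENSDARG00000090408, a neuregulin receptor, had -2.299 (SE 0.65, adjusted p = 0.0131 by edgeR). Its paralogs ENSDARG00000063207 (-2.60, SE 1.23, adjusted p = 0.112 by edgeR) and ENSDARG00000089536 (-2.48, SE 1.22, adjusted p = 0.125 by edgeR) were not called.

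The sheddases and their cofactors, some of which are known to free ligands such as HB-EGF, held the largest called rise of the 9 lists, that of *adam8a*. Release of ligand was not tested. *adam8a*, an ADAM protease also known from immune cells, was at 117, 176 and 88.1 CPM in *mych*-/-, 175, 271 and 237 CPM in WT 2 dpi and 0.960, 0 and 0.910 CPM in uninjured libraries, a log2 fold change with injury of 8.45 (SE 0.78, adjusted p = 1.05e-05 by edgeR). *adam8b* was at 134, 125 and 123 CPM in *mych*-/-, 103, 130.3 and 127 CPM in WT 2 dpi and 4.36, 5.57 and 5.36 CPM in uninjured libraries, a log2 fold change of 4.56 (SE 0.20, adjusted p = 9.92e-08 by edgeR). Injured and uninjured libraries were fully separate for both genes. Of the 13 microglial markers given above 7 rose and 1 fell with injury in WT. Without *AIF1L* their WT 2 dpi sums stayed narrowly above the uninjured ones, which the *mych*-/- sums overlapped. Whether microglia took part in the rise of *adam8a* and *adam8b* was not tested.

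*ADAM17* ENSDARG00000043213, known in mammals as a main sheddase of EGFR ligands including HB-EGF, was at 129.7, 146 and 125 CPM in *mych*-/-, 164, 187 and 153 CPM in WT 2 dpi and 68.0, 66.7 and 62.8 CPM in uninjured libraries. It rose by 1.35 (SE 0.16, adjusted p = 6.16e-05 by edgeR). The other *ADAM17* ID, ENSDARG00000093093, had the opposite sign and was not called (-0.58, SE 0.32, adjusted p = 0.161 by edgeR). *RHBDF1* ENSDARG00000036541, whose mammalian counterpart is a rhomboid-like cofactor of ADAM17, rose by 3.08 (SE 0.22, adjusted p = 1.58e-06 by edgeR), while its paralog ENSDARG00000017367 fell by 1.97 (SE 0.50, adjusted p = 0.00740 by edgeR). *adam9* also rose, so that 5 of 12 sheddase IDs rose and 2 fell, the second being *ADAM12* ENSDARG00000079068 with -1.91 (SE 0.67, adjusted p = 0.0374 by edgeR). Among all genes tested 22.3% were called higher and 19.8% lower.

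**Figure D4:**
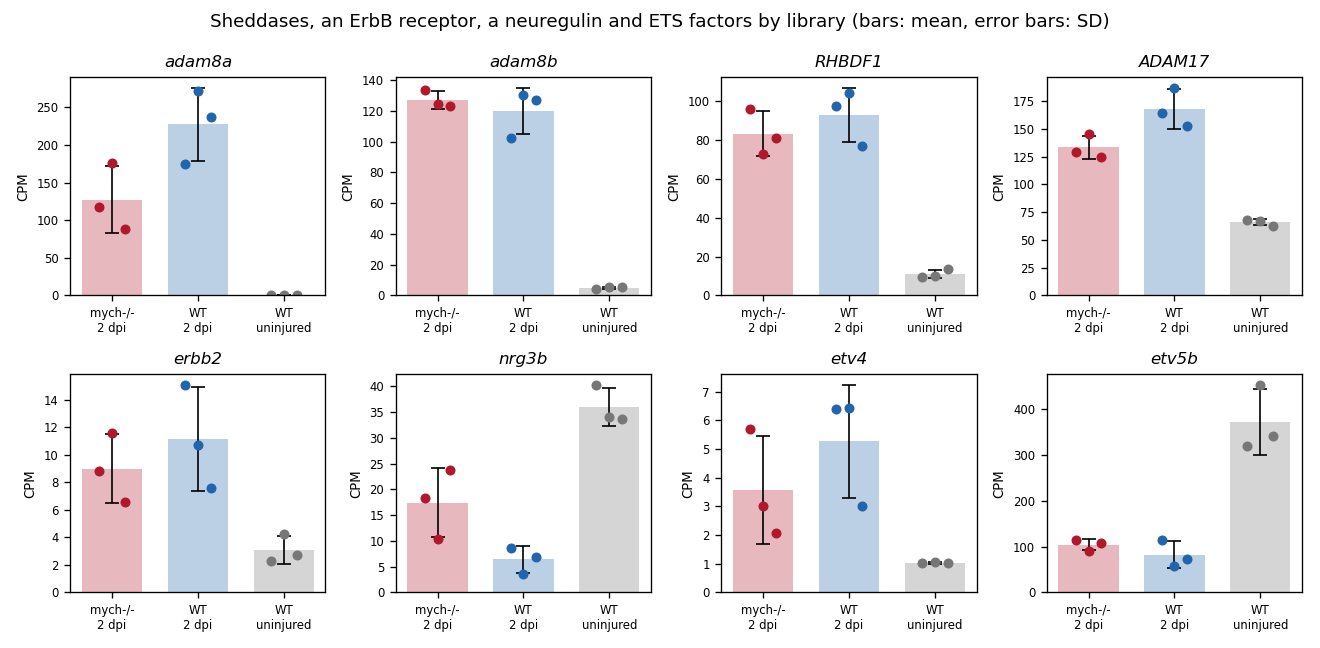
Level in CPM (linear axis from 0) of the sheddases *adam8a*, *adam8b* and *ADAM17* (ENSDARG00000043213), the cofactor *RHBDF1* (ENSDARG00000036541), the receptor *erbb2*, the ligand *nrg3b* and the ETS factors *etv4* and *etv5b* in the 3 groups. Points are libraries, bars means and error bars SD (n = 3); *adam8a* was at 88.1 to 271 CPM in injured and at most 0.960 CPM in uninjured libraries, and *etv5b* was lower in injured libraries.

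No FGF ligand of 15 tested was called with injury, and 0 had an unadjusted edgeR p-value under 0.05. Most were scarce. Of 7 FGF homologous factors, which are not secreted and bind sodium channels in neurons, 4 fell, among them *FGF12* ENSDARG00000027957 by 2.46 (SE 0.51, adjusted p = 0.00253 by edgeR) and *fgf11b* by 2.21 (SE 0.30, adjusted p = 0.000139 by edgeR). Among all genes tested 42.1% were called, 19.8% lower, and the neuronal markers given above fell with the homologous factors. *fgfr3* was the 1 of 7 FGF receptor IDs called, with a fall of 2.25 (SE 0.80, adjusted p = 0.0399 by edgeR) at a mean of 1.03 ± 0.865 CPM in WT 2 dpi and 4.93 ± 0.953 CPM in uninjured MG (SD, n = 3 each).

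Beside *dusp6*, 4 of the 14 feedback inhibitors were called with injury, where 42.1% of all genes tested were called. Those that rose restrain EGF receptors: *lrig1*, which promotes their degradation, by 1.68 (SE 0.35, adjusted p = 0.00230 by edgeR), and *ERRFI1* ENSDARG00000104039, which inhibits their kinase, by 0.57 (SE 0.18, adjusted p = 0.0207 by edgeR). The Sprouty-related *spred3* (-2.24, SE 0.44, adjusted p = 0.00178 by edgeR) and *spred2a* (-0.95, SE 0.23, adjusted p = 0.00610 by edgeR) fell with *dusp6*. The feedback list as a whole had a median of -0.22.

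Of 4 PEA3-type ETS factors, transcription factors that FGF and ERK signaling induce in zebrafish embryos, 1 rose and 1 fell. Neither *etv5a* (0.18, SE 0.20, adjusted p = 0.509 by edgeR) nor *etv1* (-1.19, SE 1.04, adjusted p = 0.399 by edgeR) was called with injury. *etv5b* was at 115, 90.2 and 108 CPM in *mych*-/-, 115, 57.9 and 73.3 CPM in WT 2 dpi and 319, 454 and 341 CPM in uninjured libraries, and fell by 2.18 with injury (SE 0.26, adjusted p = 5.92e-05 by edgeR). *etv4* was at 5.69, 2.996 and 2.06 CPM in *mych*-/-, 6.38, 6.45 and 3.003 CPM in WT 2 dpi and 1.02, 1.07 and 1.02 CPM in uninjured libraries, and rose by 2.35 (SE 0.55, adjusted p = 0.00458 by edgeR). The groups of injured and uninjured libraries did not overlap for either *etv5b* or *etv4*.

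In the Ras-MAPK cascade 6 of 31 genes rose and 6 fell, 19.4% each, near the 22.3% higher and 19.8% lower among all genes tested. Among the rises were those of the small GTPase *nras* (1.98, SE 0.34, adjusted p = 0.000663 by edgeR) and of *RASA1* ENSDARG00000073665, which switches Ras off (1.53, SE 0.37, adjusted p = 0.00547 by edgeR). The largest falls were those of the receptor adaptor *frs3* (-1.96, SE 0.52, adjusted p = 0.00895 by edgeR), the kinase *braf* (-1.92, SE 0.33, adjusted p = 0.000635 by edgeR) and the scaffold *KSR1* ENSDARG00000068714 (-1.49, SE 0.38, adjusted p = 0.00758 by edgeR).

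Replicates of a group differed in ways that several of the 12 gene IDs shared. *mych*-/- replicate 2 was the highest of its group for 10 of 12 IDs, all but *egfra* and *FGF8* ENSDARG00000003399, and also had the highest summed MG markers of any library (36107 CPM). Uninjured replicate 3 was the highest of its group for 9 of 12 and had the highest MG markers among uninjured libraries (17624 CPM). Its bipolar, horizontal, microglial, endothelial and oligodendrocyte marker sums were also the highest of the group, and its rod, amacrine and ganglion cell sums the lowest. In WT 2 dpi each replicate was the highest for 4 of 12, and replicate 1 had retinal pigment epithelium markers at 403 CPM, against 82.3 and 25.9 CPM. The part of MG or other marker levels in these differences was not tested. For *hbegfa* the coefficient of variation was 20.1% in *mych*-/- and 19.9% in WT 2 dpi libraries, against 74.6% in uninjured libraries, where its level was lowest.

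The genes whose pattern was most like that of *hbegfa* and of *dusp6* were sought among 10320 genes with a symbol and a mean of at least 10 CPM. The measure was Pearson's correlation of log2 CPM over the 9 libraries. For *hbegfa* it mainly follows the split between injured and uninjured samples, and for *dusp6* the lower level in WT 2 dpi libraries. Most like *hbegfa* were *dkk1a* (0.997), which encodes a Wnt inhibitor, *stm* (0.997), which encodes starmaker, a protein of the otolith, *LIN28A* (0.995), which encodes an RNA-binding protein of stem cells, *si:ch211-191i18.2* (0.995) and *zgc:112285* (0.994). The correlations are given as a description. Most like *dusp6*, with lower WT 2 dpi values, were *MYO3B* (0.969), an unconventional myosin gene, *adgre10* (0.963), an adhesion G protein-coupled receptor gene, *EVA1A* (0.949), *CEP170B* (0.943) and *EEIG1* (0.941).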

How the data were processed

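GFP+ MG were isolated by FACS and their polyA RNA sequenced on an Illumina platform. Whole-number read counts for each Ensembl gene ID, not normalized, were deposited by the authors with 1 column per library. The submitters' processing notes name cutadapt 2.3, FastQC 0.11.8, STAR 2.7.8a, RSEM 1.3.3 and DESeq2, and the builds GRCz11 and GRCh38, without roles. Use of strand and the annotation release are not given in the sources used here, so reads shared by overlapping genes are uncertain. How reads shared by paralogs (*hbegfa* and *hbegfb*, the *FGF8* and *FGFR1* pairs) were divided is not given either, and these are uncertain too.

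Groups and replicate numbers came from the sample titles. The labels do not say that replicates were separate animals or cultures, so p-values measure only the spread between these samples. Totals of 46835977 to 77133615 counts mean that replicate spread, not counting, limits most values; scarce genes such as *hbegfb* are the exception.

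Counts were tested with edgeR 4.0.16 (R 4.3.3): filterByExpr by group (20484 genes), TMM scaling, all 9 libraries in 1 model of group means, robust dispersion, quasi-likelihood F tests and Benjamini-Hochberg adjustment over all genes tested. Called means an adjusted p-value no higher than 0.05 with a log2 fold change beyond 0.5, the study's thresholds; its threshold on FPKM was not applied. The SE is the log2 fold change divided by the square root of F, and intervals are 95%. Library sizes for CPM were scaled by TMM. For log2 CPM the prior count was 2. Tests were tested on simulated data with 200 changed genes.

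Symbols were matched ignoring case, then without the final a or b; 93.4% of IDs had a symbol. Named were all 10 genes of the set, and of each of the 9 wider lists at most 3 called genes per direction with the largest change; *ADAM17*, *adam9*, *c1qa*, *AIF1L*, *apoeb* and *fgf7* were named after their values were seen, and 1 gene of the lists is not reported here. Likeness named 5 genes for each of *hbegfa* and *dusp6*. The genes of the set, the lists and the marker lists of 11 cell types were chosen with earlier results of these data known. Alternatives were other scalings, no filter, DESeq2 1.42.0, a dispersion that is not robust, only the 6 libraries compared, other fold thresholds, a replicate block and omission of each library. Marker sums without the most abundant marker were added after seeing the data. Tables and figures were made in Python 3.11.15 with pandas 2.3.3 and matplotlib 3.10.9.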

Additional observations from a re-analysis of the deposited data

How the results depend on the processing

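Over the 36 log2 fold changes of the 12 gene IDs in 3 comparisons, 612 alternative values were computed. Of these 558 kept their direction and side of the threshold, 17 passed it newly, 11 no longer passed it and 26 changed sign, those in 10 results, all with an adjusted p (edgeR or DESeq2) of at least 0.664. *hbegfa* and *hbegfb* stayed called under all 17 alternatives in both comparisons with uninjured MG. With injury in WT, called IDs were 5 without *mych*-/- replicate 2 (2 to 5 over the libraries left out). In injured *mych*-/- against uninjured WT they were 5 with library size only and 5 by DESeq2 (2 to 4 over the libraries left out). With library size only, the median over all genes was 0.11 between genotypes and 0.15 in *mych*-/- against uninjured WT. Between genotypes the called genes of the wider lists were 1 without a filter, 4 by DESeq2 and 0 to 5 over the libraries left out (5 without WT 2 dpi replicate 1 and 3 without *mych*-/- replicate 2). Changes of sign came from values near 0. Between genotypes *hbegfb* was 0.0055 after upper quartile scaling, 0.044 with library size only and 0.043 with the replicate block, and *fgfr2* was 0.027 with library size only. In *mych*-/- against uninjured WT, *egfra* was -0.016 with the block, *FGFR1* ENSDARG00000011027 0.15 with library size only and 0.011 with the block, and *dusp6* 0.043 with library size only. Over libraries left out, *fgfr2* ran from -0.20 to 0.049 and *spry2* from -0.21 to 0.15 with injury. Between genotypes *hbegfa* ran from -0.012 to 0.29, *hbegfb* from -0.42 to 0.23 and *fgfr2* from -0.25 to 0.21. In *mych*-/- against uninjured WT *egfra* ran from -0.22 to 0.30, *FGFR1* ENSDARG00000011027 from -0.082 to 0.18, *fgfr2* from -0.39 to 0.068 and *spry2* from -0.087 to 0.39. The cause of these changes was not tested. The labels do not say whether replicate numbers pair the samples. Over 9 pairs of same-numbered libraries, deviations from group means correlated at -0.08 to 0.09, and over differently numbered pairs at -0.18 to 0.12. With 3 libraries per group these correlations cannot decide it. With the replicate number as a block 3, 0 and 2 IDs were called in the 3 comparisons. Depth limits *hbegfb*, with at most 16 counts in an uninjured library.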
